A study of Mus musculus with 35 samples.

Results

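The level of Srf reads was followed across 17 single mouse embryos of 35 in the series, selected on their labels as those injected with mRNA of a dominant negative form of the transcription factor SRF (SRF-DN). These were all 7 embryos of the SRF-LOF group, which received SRF-DN mRNA alone, and all 10 embryos of the double-LOF group, which received SRF-DN mRNA together with an antisense oligonucleotide against DUX. The other 18 embryos received no SRF mRNA: 9 controls had a scrambled antisense oligonucleotide and 9 DUX-LOF embryos the oligonucleotide against DUX. All embryos were of the F1 cross C57BL/6JxCBA/H, were microinjected as zygotes 24 h after hCG, grew in KSOM medium and were collected as late 2-cell embryos at 48 h. No group received a control mRNA, the SRF-LOF embryos received no oligonucleotide, and the labels name no litter, injection day or batch, so a p-value here reflects embryo-to-embryo differences that may in part be technical. Each embryo was 1 library, made by Smart-seq+5', a relative of Smart-seq2 that reads fragments from inside polyadenylated transcripts (internal reads) beside fragments from their 5' ends (5' reads).

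SRF, serum response factor, is a MADS-box transcription factor that binds a DNA element named the CArG box. With the cofactors MRTFA and MRTFB, which respond to the pool of free actin, it drives genes of the actin cytoskeleton, and with ternary complex factors such as ELK1 and ELK4 it drives immediate early genes. A dominant negative SRF still binds DNA but does not activate, so the amount of mutant protein relative to the embryo's own SRF is known to matter for such a reagent. The late 2-cell stage in the mouse is the time of major zygotic genome activation, when maternal oocyte transcripts are cleared, MERVL retrotransposons and genes driven by DUX pass through a burst of transcription, and ribosome biogenesis genes come on. An mRNA microinjected by hand varies in volume from embryo to embryo. The comparison asked whether the Srf read level, used as a stand-in for the amount of mRNA that an embryo held at collection, tracked the differences between embryos of the same group.

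Internal gene counts ranged from 220921 to 1619539 in the 17 embryos, and the lowest total by far was that of double-LOF embryo 6. ERCC spike-in counts were 1.62% to 6.73% of gene counts and mitochondrial transcripts 2.99% to 6.99%. MERVL-int, which marks 2-cell embryos, was abundant in all 17. The value of 1 count lay between 0.647 and 3.80 CPM, so levels of a few CPM rest on a few counts. Summed markers of cumulus cells stood at 0 to 52.9 CPM (gene counts scaled to library size by TMM), those of sperm at 0 to 13.2 CPM and those of blood cells at 10.4 to 131 CPM. None of the cumulus or sperm markers and 2 of the blood markers had enough counts to be tested.

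Srf (ENSMUSG00000015605.6, GRCm38 chr17:46548329-46556175, − strand) was read in every embryo. The embryos are ordered below by this measured Srf level, chosen by rule as the scale of the comparison, so it is given as a description with no test. In the 7 SRF-LOF embryos Srf stood at 97.1 CPM in embryo 8, 181 in embryo 3, 215 in embryo 6, 288 in embryo 7, 375 in embryo 9, 443 in embryo 5 and 805 in embryo 4, with 149 to 950 internal Srf counts behind the values. In the 10 double-LOF embryos it stood at 217 CPM in embryo 2, 228 in embryo 9, 335 in embryo 10, 347 in embryo 1, 530 in embryo 4, 645 in embryo 8, 719 in embryo 6, 873 in embryo 3, 1474 in embryo 7 and 1662 in embryo 5, from 189 to 1382 counts. The highest embryo of a group was 8.29 times the lowest in SRF-LOF and 7.67 times the lowest in double-LOF. The embryos without SRF mRNA had 11.7 to 41.2 CPM (controls) and 15.6 to 51.2 CPM (DUX-LOF), so that every embryo that received the mRNA was above every embryo that did not. Reads of the injected mRNA and of the embryo's own Srf cannot be told apart in these counts.

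**Figure D1:**
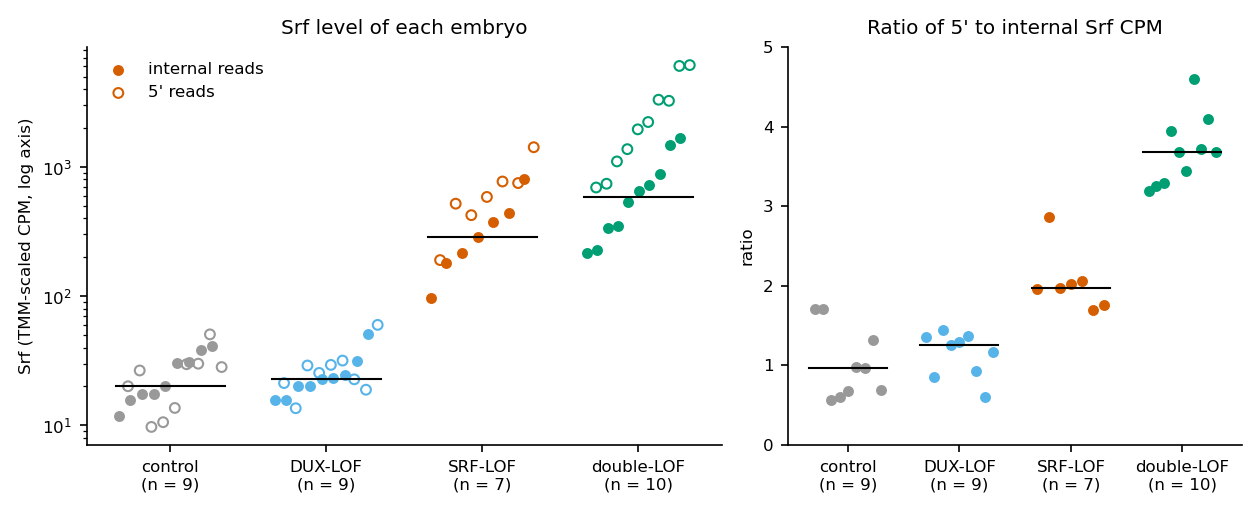
Srf level of each of the 35 embryos in TMM-scaled CPM on a log axis (left; filled points, internal reads; open points, 5' reads; lines, group medians of internal reads) and the ratio of 5' to internal Srf CPM (right; lines, medians). The 17 embryos with SRF mRNA lie at 97.1 to 1662 CPM in internal reads, above all 18 others, and the ratio separates double-LOF (3.20 to 4.60) from SRF-LOF (1.69 to 2.87).

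The 5' reads ranked the embryos almost as the internal reads did (Pearson r = 0.98 and Spearman rho = 0.97 over 17 embryos, r = 0.97 without SRF-LOF embryo 8 and double-LOF embryo 5, the farthest from the median). Both kinds of reads come from the same gene in the same libraries, so this agreement is only a description. The ratio of 5' to internal Srf CPM was 0.561 to 1.71 in the controls and 0.604 to 1.44 in DUX-LOF. It was 1.69 to 2.87 in SRF-LOF and 3.20 to 4.60 in double-LOF, so these groups did not overlap. On the log2 scale the mean ratio over the 7 SRF-LOF embryos was 1.01 and over the 10 double-LOF embryos 1.88. The ratio was looked at after the values had been seen and shares the internal Srf level with the rule, so it is given with no test. All 10 double-LOF embryos thus held more 5' Srf reads for their internal Srf reads than all 7 SRF-LOF embryos did, and whether the mRNA preparations differed was not tested. Slopes below are fitted within the groups and never across them.

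Of the summary measures of an embryo, none passed the adjustment over the family of 10 relations other than the 5' Srf level itself. That member reads the same gene as the scale, and counting it in the family lowers the adjusted p of other measures. Total internal gene counts gave a negative relation (r = -0.45, permutation p = 0.0747, adjusted p = 0.149; rho = -0.59, permutation p = 0.0235, adjusted p = 0.117; r = -0.46 without the 2 farthest embryos; each over 17 embryos, centred within the groups). The number of genes detected gave r = -0.46 (permutation p = 0.0719, adjusted p = 0.149). The ratio of ERCC to gene counts, an inverse measure of the RNA an embryo yielded, gave r = 0.12 (permutation p = 0.678). The relation of depth to the Srf level missed the adjusted threshold, and fits that hold the gene count are given beside the slopes below.

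For each gene, log2 expression was fitted on the log2 Srf level within the groups by edgeR's quasi-likelihood test, which gave a slope in log2 units of expression per log2 unit of Srf. At an adjusted p under 0.05, 22 of 9806 genes were called (0.224%), 2 with a positive (0.0204%) and 20 with a negative slope (0.204%). The calls sat at the threshold, with adjusted p from 0.0405 to 0.0473, and the nearest gene outside it, Tmed9, a cargo receptor of the early secretory pathway, had a slope of -0.92 ± 0.20 and an adjusted p of 0.0585. At an unadjusted p under 0.05 there were 2379 genes (24.3%), 1629 of them negative (16.6%) and 750 positive (7.65%). DESeq2 on the same embryos and genes called 915 genes (9.33%), 231 positive (2.36%) and 684 negative (6.98%). The edgeR count fell to 0 without the 2 SRF-LOF embryos with the lowest Srf, 8 and 3, where 896 genes (8.85% of 10127) had an unadjusted p under 0.05, and also to 0 with the gene count held, where 1257 (12.8%) did.

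The same fit on the 18 embryos without SRF mRNA, in which Srf reads are the embryo's own, called 0 of 9803 genes by edgeR and 3 by DESeq2, with 939 genes (9.58%) at an unadjusted p under 0.05. There Srf spanned fewer counts and a narrower range, so the 2 fits do not have the same precision. In the 17 embryos, the gene count put in place of the Srf level called 0 genes, with 1022 (10.4%) at an unadjusted p under 0.05, and the ERCC ratio called 0, with 1044 (10.6%). In the SRF-LOF embryos alone edgeR called 0 of 5657 genes and DESeq2 413, with 958 (16.9%) at an unadjusted p under 0.05. In the double-LOF embryos alone edgeR called 0 of 4722 and DESeq2 23, with 552 (11.7%). The difference between the slopes of the 2 groups was called for 0 of 9806 genes by edgeR and for 1 by DESeq2, with 672 (6.85%) at an unadjusted p under 0.05.

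The share of the spread between embryos of a group that went with the Srf level, the squared correlation of a gene's log2 CPM with it, had a median of 11.4% over the 9806 genes (lower quartile 3.24%, upper quartile 23.1%). It exceeded 50% for 1.51% of genes. The same median was 7.41% for the gene count and 7.23% for the ERCC ratio, and it was 5.52% for Srf in the embryos without SRF mRNA. Without SRF-LOF embryos 3 and 8 it was 6.96%, against 6.98% for the gene count in the same 15 embryos. For the 545 repeat subfamilies the median was 4.15% for Srf and 7.41% for the gene count. Most of the spread of a typical gene between these embryos therefore did not go with the Srf read level on this scale.

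Of the 20 genes with a called negative slope, Hspb1 belonged to the stress response list and Ebna1bp2 to that of ribosome biogenesis. Hspb1 (chr5:135887919-135889563, + strand, GRCm38), a small heat shock protein that protects actin filaments, had 631 and 487 CPM in SRF-LOF embryos 8 and 3 and 18.7 to 45.0 CPM in the other 5. In double-LOF it had 335, 389 and 197 CPM in the 3 embryos with the lowest Srf and 9.62 to 110 CPM in the other 7. In both groups the low-Srf embryos held the most Hspb1, without overlap, an order that describes a gene chosen by its slope on Srf. The slope was -1.49 ± 0.26 (edgeR adjusted p = 0.0405; SRF-LOF alone -1.65 ± 0.43, double-LOF alone -1.30 ± 0.26). The controls ranged from 7.42 to 773 CPM for Hspb1, which covers all of the embryos with SRF mRNA.

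**Figure D2:**
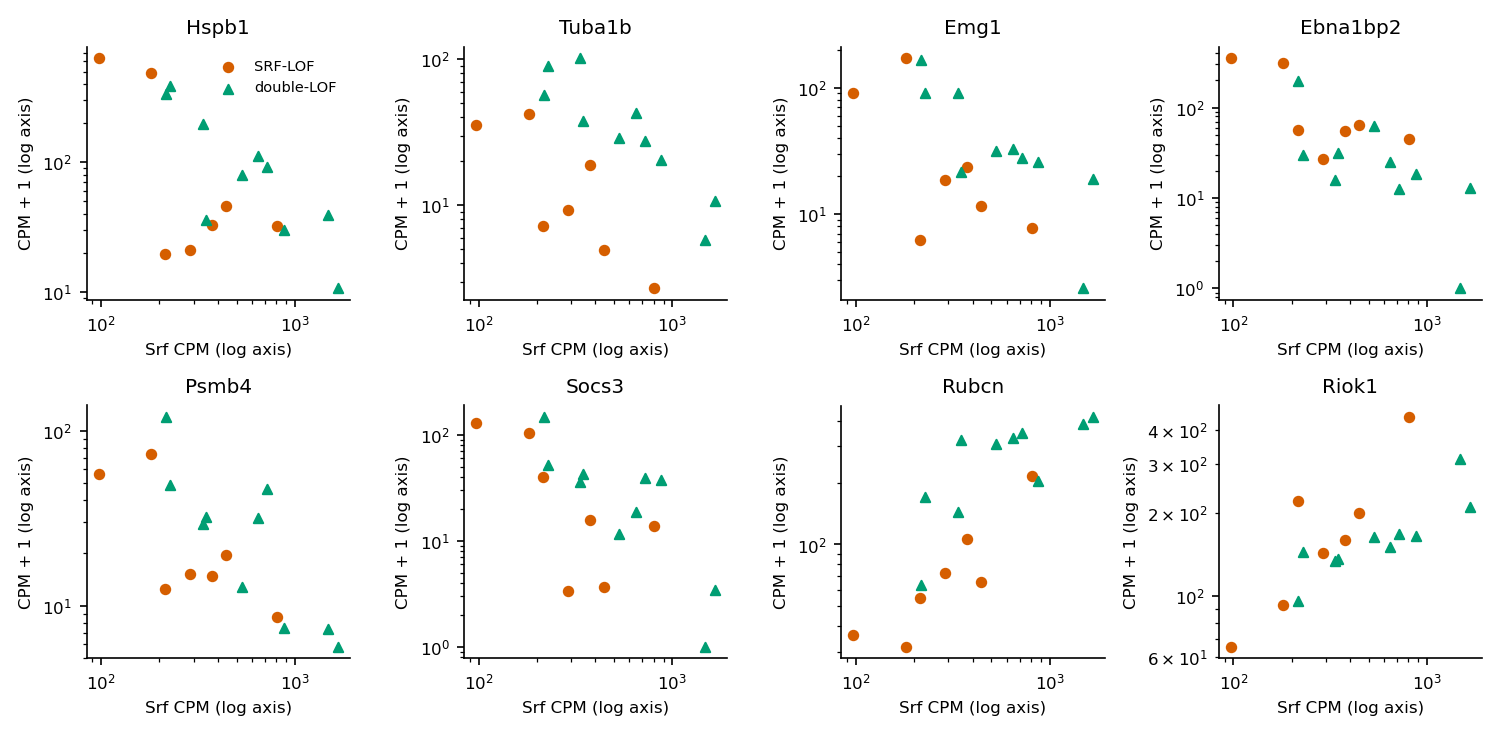
Level of 8 called genes (CPM + 1, log axis) against Srf CPM (log axis) in 7 SRF-LOF embryos (circles) and 10 double-LOF embryos (triangles). The first 6 genes have negative and Rubcn and Riok1 positive slopes, and the SRF-LOF embryos at 97.1 and 181 CPM of Srf lie apart from the other 5 for most of them.

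Tuba1b, an alpha tubulin (chr15:98931425-98934565, − strand), stood at 34.5 and 41.0 CPM in SRF-LOF embryos 8 and 3 and at 1.70 to 17.7 CPM in the other 5. In double-LOF it ran from 56.1, 88.2 and 100.1 CPM in embryos 2, 9 and 10, which had the lowest Srf, to 4.74 and 9.62 CPM in embryos 7 and 5, which had the highest Srf. Its slope was -1.22 ± 0.22 (edgeR adjusted p = 0.0405). Tubulin genes have close relatives, so the reads of 1 member are uncertain.

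Psmb4 and Psmb1 are beta subunits of the proteasome's core ring. Psmb4 had 55.4 and 72.6 CPM in SRF-LOF embryos 8 and 3 and 7.63 to 18.5 CPM in the other 5, and in double-LOF it lay between 119 CPM in embryo 2 and 4.81 CPM in embryo 5. The slopes were -1.16 ± 0.22 for Psmb4 and -1.02 ± 0.20 for Psmb1 (edgeR adjusted p = 0.0405 each).

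Emg1 and Ebna1bp2 act in ribosome assembly, Emg1 as a methyltransferase of the small subunit RNA and Ebna1bp2 as a factor of the large subunit. Ebna1bp2 (chr4:118620799-118627776, + strand) had 348 and 309 CPM in SRF-LOF embryos 8 and 3 and 25.8 to 63.5 CPM in the other 5. In double-LOF it had 194 CPM in embryo 2, 11.4 to 60.9 CPM in 8 embryos and 0 counts in embryo 7, which allows up to 4.74 CPM (3 counts), and the slope was -1.21 ± 0.25 (edgeR adjusted p = 0.0456). Emg1 had a slope of -1.33 ± 0.26 (edgeR adjusted p = 0.0405), with 89.2 and 169 CPM in SRF-LOF embryos 8 and 3 against 5.19 to 22.7 CPM in the other 5. Mrps7, a protein of the mitochondrial ribosome, had a slope of -0.76 ± 0.14 (edgeR adjusted p = 0.0405).

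Socs3, a suppressor of cytokine signalling, had a slope of -1.42 ± 0.29 (edgeR adjusted p = 0.0449), and its level fell from 130 and 102 CPM in SRF-LOF embryos 8 and 3 and 147 CPM in double-LOF embryo 2 to 0 and 2.41 CPM in double-LOF embryos 7 and 5. Pias3, a SUMO ligase that restrains STAT3, had a slope of -1.65 ± 0.30, and Gskip, which binds the kinase GSK3B, of -1.41 ± 0.28 (edgeR adjusted p = 0.0405 each). The steepest slopes were those of Sec1, a fucosyltransferase (-1.96 ± 0.41), and of Pramel4, a member of the large Prame-like family whose copies share reads (-1.72 ± 0.34). The other negative calls, like Psmb4, Psmb1 and Mrps7 outside the rule for naming and given after their values were seen, were Chtop, Isyna1, Upp1, Ggps1, Sycp1, Sltm, Foxr1 and the predicted gene Gm38100, with slopes from -1.14 to -0.87.

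Of the positive calls, Rubcn encodes Rubicon, a negative regulator of autophagy (chr16:32821703-32877766, − strand). It had 35.2 and 30.7 CPM in SRF-LOF embryos 8 and 3, 54.0 to 106 CPM in the next 4 and 215 CPM in embryo 4, which had the most Srf, and in double-LOF it ran from 62.6 CPM in embryo 2 to 384 and 416 CPM in embryos 7 and 5. The slope was 0.69 ± 0.14 (edgeR adjusted p = 0.0405). Riok1, an atypical kinase of small subunit maturation (chr13:38036995-38061433, + strand), had 64.5 and 92.2 CPM in SRF-LOF embryos 8 and 3, 142 to 220 CPM in the next 4 and 444 CPM in embryo 4. In double-LOF it had 95.0 CPM in embryo 2 and 313 CPM in embryo 7, and the slope was 0.55 ± 0.11 (edgeR adjusted p = 0.0405). The order of Rubcn and Riok1 in SRF-LOF embryos had the same lowest pair and the same highest embryo as Srf, in genes chosen by their slope on Srf.

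All 22 called genes had slopes of the same sign in SRF-LOF alone and in double-LOF alone. The genes were called in these same 17 embryos, so this agreement, and that in fewer of them below, is only a description. Of all 9806 genes tested, 3491 were negative and 3464 positive in both groups alone. In the embryos without SRF mRNA 7 of the 22 had a slope of the opposite sign, and 2 of the 22, Rubcn and Chtop, reached an unadjusted p under 0.05, where the slope of Rubcn was 0.94 ± 0.28 (edgeR p = 0.0027, adjusted p = 0.507). Without SRF-LOF embryos 3 and 8 all 22 kept their sign and an unadjusted p under 0.05, with slopes at 0.581 to 0.950 of those over 17 embryos, and their edgeR adjusted p rose to between 0.498 and 0.516. Leaving out any 1 embryo gave between 0 and 80 called genes, with 0 in 11 of the 17 fits.

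Ribosomal protein genes were the list with the lowest median slope. Over 78 tested cytosolic ribosomal proteins 0 were called by edgeR (0.224% of all genes). At an unadjusted p under 0.05, 55 had a negative and 0 a positive slope (16.6% and 7.65% of all genes). DESeq2 called 22, all negative, where it called 6.98% of all genes negative. The median slope was -0.50, beside -0.03 over all genes. It was -0.72 in SRF-LOF alone, -0.33 in double-LOF alone and -0.08 in the embryos without SRF mRNA. In both groups alone 74 of the 78 were negative, beside 3491 of all 9806 genes tested. The summed level was 13273 and 14741 CPM in SRF-LOF embryos 8 and 3 and 3459 to 7281 CPM in the other 5. In double-LOF it was 12329 CPM in embryo 2, 1958 CPM in embryo 7 and 3764 to 8965 CPM in the other 8. The controls held 6209 to 17598 CPM: SRF-LOF embryos 8 and 3 and double-LOF embryo 2 lay inside that range, and 3 of the 7 SRF-LOF and 5 of the 10 double-LOF embryos lay below all controls. Rpl10, the member with most counts among those named, had 373 and 289 CPM in SRF-LOF embryos 8 and 3, 82.2 to 177 CPM in the other 5, and a slope of -0.69 ± 0.18 (edgeR adjusted p = 0.0835). Ribosomal protein genes have many processed pseudogenes, so the split of reads between copies is uncertain.

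**Figure D3:**
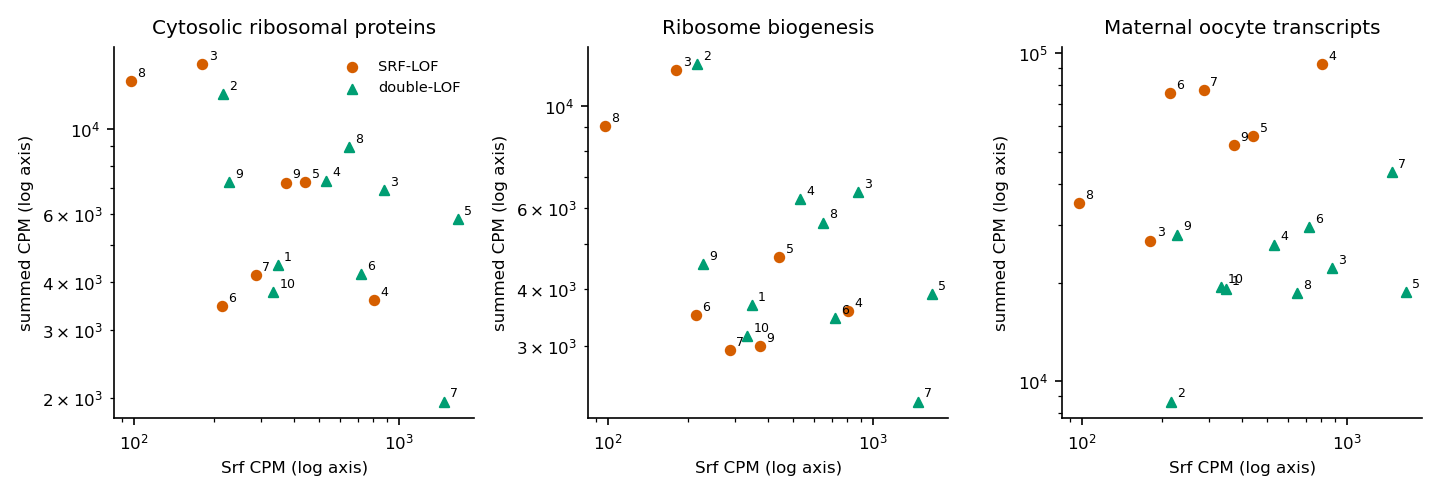
Summed level (CPM, log axis) of 3 gene lists against Srf CPM (log axis) in 7 SRF-LOF (circles) and 10 double-LOF embryos (triangles), with replicate numbers beside the points. SRF-LOF 8 and 3 and double-LOF 2 have the highest sums of both ribosome lists, at 12329 CPM or more for ribosomal proteins and 9037 CPM or more for ribosome biogenesis.

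The genes of ribosome biogenesis, which act in the nucleolus on the precursor RNA and on subunit assembly, followed the same course. Of 61 tested, 1 was called (Ebna1bp2), 37 had a negative and 0 a positive slope at an unadjusted p under 0.05 (16.6% and 7.65% of all genes), and the median slope was -0.49 (SRF-LOF alone -0.71, double-LOF alone -0.38, without SRF mRNA -0.29). Emg1 and Riok1, which also act on ribosomal subunits, are not in this list. Their called slopes went opposite ways, -1.33 for Emg1 and 0.55 for Riok1. The summed level was 9037 and 12012 CPM in SRF-LOF embryos 8 and 3 and 2938 to 4686 CPM in the other 5, and 12375 CPM in double-LOF embryo 2 against 2269 to 6509 CPM in the other 9. Ddx21, a nucleolar RNA helicase, had 65.8 and 203 CPM in the first 2 of these embryos, 8.47 to 21.8 CPM in the other 5 SRF-LOF embryos and 227 CPM in double-LOF embryo 2 (slope -0.99 ± 0.28, edgeR adjusted p = 0.0911).

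Both ribosome medians stayed negative under every alternative that was run. Leaving out single embryos moved the ribosomal protein median between -0.58 and -0.43 and that of ribosome biogenesis between -0.57 and -0.37. Without SRF-LOF embryos 3 and 8 together they were -0.33 and -0.27. The genes with a negative slope at an unadjusted p under 0.05 went from 55 to 12 of 78 and from 37 to 8 of 61. Over all genes, in either direction, the share at that level went from 24.3% to 8.85%. With the gene count held the medians were -0.48 and -0.45, with 25 and 19 genes negative at that level (12.8% of all genes in either direction). With Srf counts set against ERCC counts the medians were -0.40 and -0.37.

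Translation factors had a median slope of -0.29 over 42 tested genes, with 14 negative and 2 positive at an unadjusted p under 0.05 (16.6% and 7.65% of all genes) and 0 called. Eif4h, a cofactor of the RNA helicase that opens mRNA leaders, had a slope of -0.57 ± 0.13 (edgeR adjusted p = 0.0657). Eif4ebp1, which blocks the cap-binding protein until it is phosphorylated, had a slope of -1.04 ± 0.24 (edgeR adjusted p = 0.0675), with 81.4 and 79.4 CPM in SRF-LOF embryos 8 and 3 and 11.9 to 52.9 CPM in the other 5. Eif3m and Eif3c, subunits of the initiation factor that loads the small subunit, had slopes of -1.31 ± 0.35 and -0.93 ± 0.27 (edgeR adjusted p = 0.0835 and 0.0936).

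**Figure D4:**
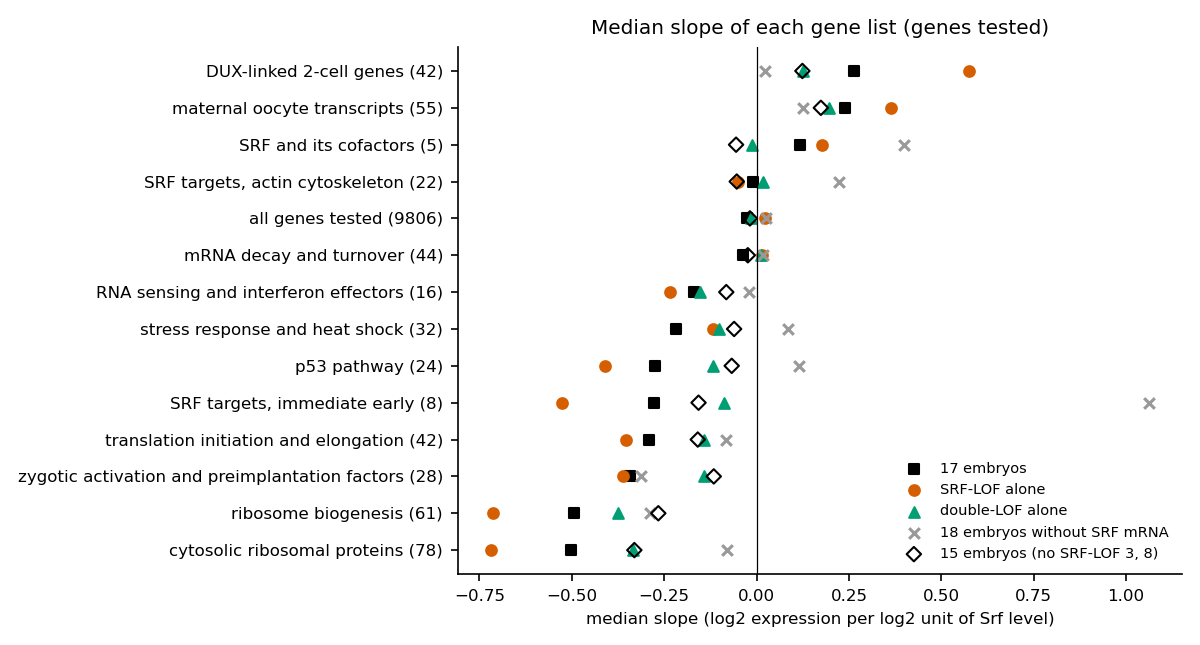
Median slope of each gene list (log2 expression per log2 unit of Srf level; tested genes in brackets) in the 17 embryos (squares), in SRF-LOF alone (circles), in double-LOF alone (triangles), in the 18 embryos without SRF mRNA (crosses) and in 15 embryos without SRF-LOF 3 and 8 (diamonds). Ribosomal proteins have a median of -0.50 in the 17 embryos and maternal transcripts 0.24, beside -0.03 for all genes.

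Maternal oocyte transcripts, which the egg stores and which are degraded by this stage, went the other way. Of 55 tested 0 were called, 18 had a positive and 1 a negative slope at an unadjusted p under 0.05 (7.65% and 16.6% of all genes), and the median slope was 0.24 (SRF-LOF alone 0.36, double-LOF alone 0.20, without SRF mRNA 0.12). The summed level was 34896 and 26857 CPM in SRF-LOF embryos 8 and 3 and 52603 to 92717 CPM in the other 5, so the lowest pair did not overlap the rest. In double-LOF it was 8682 CPM in embryo 2, 43412 CPM in embryo 7 and 18549 to 29429 CPM in the other 8. Nobox, an oocyte homeobox factor, had 154 and 55.5 CPM in SRF-LOF embryos 8 and 3 and 357 to 532 CPM in the other 5. It had 2.16 CPM in double-LOF embryo 2 and 330 CPM in double-LOF embryo 7 (slope 0.98 ± 0.24, edgeR adjusted p = 0.0797). Fmn2, an actin nucleator of the oocyte spindle, had a slope of 0.44 ± 0.12 (edgeR adjusted p = 0.0835). Of the 55 slopes 6 were negative. Zp3, a protein of the egg coat, was the only negative member at an unadjusted p under 0.05. It had a slope of -0.64 ± 0.19 (edgeR adjusted p = 0.0936) and 197 and 184 CPM in SRF-LOF embryos 8 and 3 against 24.6 to 44.4 CPM in the other 5. With ERCC scaling the median was 0.21 and 3 genes were positive at an unadjusted p under 0.05 in place of 18.

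The main axis of the spread placed the same embryos apart. The principal components were computed on the 17 embryos with SRF mRNA, and the other 18 were projected on them. On the first component (44.0% of the variance among the 17) SRF-LOF embryos 8 and 3 scored -30.1 and -55.7 and the other 5 from 70.2 to 117. The projected controls ranged from -80.6 to 68.5. Double-LOF embryo 2 scored -126, the lowest of its group, double-LOF embryo 7 scored 77.0, and the other 8 from -67.3 to -9.07. The first component gave r = 0.60 with the Srf level, centred within the groups (permutation p = 0.0127, adjusted p = 0.0636), and rho = 0.39 (permutation p = 0.154). The second component gave r = 0.56 (permutation p = 0.0226, adjusted p = 0.0755). Both missed the adjusted threshold, and embryos in separate clusters are described poorly by a single r. Among the 5 SRF-LOF embryos at the high end of the first component, Srf ran from 215 to 805 CPM with no order along it: the highest score, 117, belonged to embryo 7 at 288 CPM. In double-LOF the embryo with the most Srf, 5, scored -37.2, between the others. The lowest score of double-LOF thus belonged to its embryo with the lowest Srf and the lowest pair of SRF-LOF to its lowest pair, while double-LOF embryo 9, at 228 CPM, scored -47.0 and embryo 3, at 873 CPM, scored -67.3.

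Genes linked to DUX had a median slope of 0.26 over 42 tested (31 positive, 11 negative), with 5 positive and 6 negative at an unadjusted p under 0.05 (7.65% and 16.6% of all genes) and 0 called. The medians were 0.57 in SRF-LOF alone and 0.13 in double-LOF alone. Usp17la, a ubiquitin protease of a multicopy family active at the 2-cell stage, had 35.2 and 33.3 CPM in SRF-LOF embryos 8 and 3 and 46.3 to 356 CPM in the other 5 (slope 0.78 ± 0.22, edgeR adjusted p = 0.0915). Eif1a, a translation initiation factor in the same list, had 148 and 150 CPM in these 2 embryos and 3.94 to 25.9 CPM in the other 5 (slope -0.998 ± 0.293, edgeR adjusted p = 0.0936). The positive median of the list thus held members of either sign.

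The known targets of SRF had slopes of either sign. Of 22 tested actin cytoskeleton targets 0 were called, 7 had a negative and 2 a positive slope at an unadjusted p under 0.05 (16.6% and 7.65% of all genes), and the median slope was -0.01. Actg1, cytoplasmic gamma actin, had 268 and 190 CPM in SRF-LOF embryos 8 and 3 and 70.3 to 118 CPM in the other 5, and 11.1 to 138 CPM in double-LOF (slope -0.56 ± 0.16, edgeR adjusted p = 0.0936). Cnn2, a calponin that binds actin, had a slope of -0.98 ± 0.31 (edgeR adjusted p = 0.09997). Cnn3, its relative, had a slope of 0.50 ± 0.14 (edgeR adjusted p = 0.0875), and Diaph1, a formin, of 0.35 ± 0.12 (edgeR adjusted p = 0.105).

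A CArG box was searched for in the RefSeq promoters (GRCm38.p6, 250 bases before to 50 after the gene's start), as its 10-base consensus with no mismatch, which reads as itself on the other strand. It was found in 114 of 7307 tested genes with a promoter (1.56%) and in 9 of 20 tested actin targets. Of those 9, 4 had a negative and 0 a positive slope at an unadjusted p under 0.05, against 2 negative and 1 positive of the 11 actin targets with no match, and both medians were -0.01. Over all 114 genes with a match 24 were negative (21.1%) and 9 positive (7.89%), beside 17.1% and 7.60% of genes with no match. Of the 22 called genes 20 had a promoter in the table, and 1 of them, Pramel4, held a match. The windows below show the box in capitals for the 4 actin targets with such a slope, for Vcl and Fermt2, targets without one, and for Pramel4.
Actg1 (chr11:120348546-120348615, − strand): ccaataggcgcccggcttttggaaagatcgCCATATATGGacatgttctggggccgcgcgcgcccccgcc
Cnn2 (chr10:79988514-79988583, + strand): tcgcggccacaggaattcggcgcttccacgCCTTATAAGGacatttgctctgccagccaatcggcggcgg
Myl6 (chr10:128493020-128493089, − strand): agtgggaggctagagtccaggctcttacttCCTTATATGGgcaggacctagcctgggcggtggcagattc
Lima1 (chr15:99820157-99820226, − strand): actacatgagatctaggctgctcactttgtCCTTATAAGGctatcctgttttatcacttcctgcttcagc
Vcl (chr14:20929148-20929210, + strand): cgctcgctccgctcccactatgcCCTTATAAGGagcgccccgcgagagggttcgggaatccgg
Fermt2 (chr14:45530230-45530299, − strand): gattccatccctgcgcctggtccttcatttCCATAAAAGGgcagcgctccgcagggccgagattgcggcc
Pramel4 (chr4:144059063-144059124, + strand): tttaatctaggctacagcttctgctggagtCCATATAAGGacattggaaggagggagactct

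The same box, CCTTATAAGG, stands before Cnn2, Lima1 and Vcl, whose slopes were -0.98 ± 0.31, -0.38 ± 0.18 and 0.04 ± 0.29; the differences between them were not tested. Myl6, a myosin light chain, had a slope of -0.44 ± 0.17 (edgeR adjusted p = 0.129), and Lima1, an actin-bundling protein, missed the threshold as well (edgeR adjusted p = 0.201). Vcl, vinculin of focal adhesions, had an edgeR adjusted p of 0.943, and Fermt2, kindlin-2, a slope of 0.28 ± 0.15 (edgeR adjusted p = 0.261).

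Of 8 tested immediate early targets 0 were called, 2 had a negative slope at an unadjusted p under 0.05 (16.6% of all genes) and the median was -0.28. Mcl1, a survival factor of the BCL2 family, had a slope of -0.69 ± 0.22 (edgeR adjusted p = 0.101) and Ier2 of -0.59 ± 0.27 (edgeR adjusted p = 0.184). Ier2 had 244 and 160 CPM in SRF-LOF embryos 8 and 3 and 4.69 to 77.1 CPM in the other 5, without overlap. This split describes a gene named by its p on Srf. In double-LOF it ran from 14.2 CPM in embryo 7 to 152 CPM in embryo 10, with 70.5 CPM in embryo 2, the lowest in Srf. The edgeR p of its slope was 0.139 in SRF-LOF alone and 0.114 in double-LOF alone. In the embryos without SRF mRNA the slope of Ier2 on Srf was 1.24 (edgeR adjusted p = 0.507), and the median of the list there was 1.06 over 7 tested genes. Of SRF's 5 tested cofactors none had an unadjusted p under 0.05 or an adjusted p under 0.05, and Mrtfb had the smallest p, with a slope of 0.23 ± 0.12 (edgeR adjusted p = 0.225).

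Lists for the response to injected RNA and to stress had median slopes between -0.28 and -0.04. Of 16 RNA sensing and interferon genes 0 were called and 3 were negative at an unadjusted p under 0.05 (16.6% of all genes). Irf9, an interferon regulatory factor, was among them, with 41.7 and 23.9 CPM in SRF-LOF embryos 8 and 3 and 0 to 4.93 CPM in the other 5 (slope -1.65 ± 0.40, edgeR adjusted p = 0.0792). In double-LOF it ran from 50.4 CPM in embryo 2 to 0 in embryo 7, with 42.9 CPM in embryo 8. Trim25, which activates the RNA sensor RIG-I, had a slope of -1.23 ± 0.39 (edgeR adjusted p = 0.101). None of the 16 was positive at that level (7.65% of all genes), and with 5' counts and the 5' Srf level 2 were positive and 2 negative.

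Of 32 stress and heat shock genes 1 was called (Hspb1), 11 were negative and 4 positive at an unadjusted p under 0.05 (16.6% and 7.65% of all genes), and the median was -0.22. Dnajb1, a cochaperone of HSP70, had a slope of 0.50 ± 0.16 (edgeR adjusted p = 0.101) and Hmox1, heme oxygenase, of -1.25 ± 0.40 (edgeR adjusted p = 0.102). Of 24 p53 pathway genes 0 were called, 5 were negative and 1 positive (16.6% and 7.65% of all genes), with a median of -0.28. Ddb2, a p53 target in DNA repair, was the positive one (slope 0.61 ± 0.14, edgeR adjusted p = 0.0670), and Bax, an effector of apoptosis, had a slope of -0.78 ± 0.25 (edgeR adjusted p = 0.103). Of 44 genes of mRNA decay 0 were called, with 6 negative and 6 positive (16.6% and 7.65% of all genes) and a median of -0.04. Cnot4, a ubiquitin ligase of the deadenylase complex, had a slope of 0.54 ± 0.13 (edgeR adjusted p = 0.0740).

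Factors of zygotic activation and preimplantation development had a median slope of -0.34 over 28 tested, with 9 negative and 3 positive at an unadjusted p under 0.05 (16.6% and 7.65% of all genes) and 0 called. Dppa4, a chromatin protein upstream of Dux in mouse, had 170 and 221 CPM in SRF-LOF embryos 8 and 3 and 4.15 to 46.3 CPM in the other 5 (slope -0.97 ± 0.30, edgeR adjusted p = 0.0997). Obox3, a homeobox gene of a cluster whose copies share reads, had 78.2 and 102 CPM in these 2 embryos and 2.54 to 13.2 CPM in the other 5 (slope -0.93 ± 0.30, edgeR adjusted p = 0.102). The median in the embryos without SRF mRNA was -0.31, close to that of the 17 embryos.

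The genes that separated SRF-LOF from control embryos were followed in the double-LOF embryos, which are in neither group of that comparison. They did enter the count filter, the scaling and the estimates of spread of the fit behind it. In the edgeR fit of the 4 groups 229 of the 9806 genes were called between SRF-LOF and control (2.34%), 167 higher in SRF-LOF (1.70%) and 62 lower (0.632%). Within the 10 double-LOF embryos the slope on the Srf level was positive for 145 of the 167 (86.8%) and negative for 54 of the 62 (87.1%), beside 48.2% positive and 51.8% negative over all genes. The median slopes were 0.25 and -0.29. At an unadjusted p under 0.05, 21 of the 167 were positive and 21 of the 62 negative. Over all 9806 genes 426 were positive and 590 negative at that level in the same embryos. In the 9 DUX-LOF embryos, where Srf reads are the embryo's own, 58.7% of the 167 were positive and 59.7% of the 62 negative. Over all genes 48% were positive and 52% negative in DUX-LOF. Genes of 1 embryo vary together, so these shares carry no p. Without double-LOF embryo 7 the shares were 119 of 167 (71.3%) and 47 of 62 (75.8%), and without embryo 2 they were 131 of 167 (78.4%) and 49 of 62 (79.0%). The slopes in the SRF-LOF embryos themselves are not set beside these, since those embryos chose the genes.

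Of 545 repeat subfamilies 0 were called in the 17 embryos by edgeR and 0 by DESeq2, with 20 (3.67%) at an unadjusted p under 0.05 in edgeR. In SRF-LOF alone edgeR called 0 of 381, DESeq2 called 8, all negative, and edgeR with no count filter called 1. MERVL-int, the internal part of the 2-cell retrovirus, had 7040, 15887, 4834, 8288, 18564, 5592 and 13370 CPM in the SRF-LOF embryos taken from the lowest to the highest Srf, so that high and low embryos alternated along the Srf level. In double-LOF it ranged from 2599 CPM in embryo 10 to 24556 CPM in embryo 2, with 7936 and 7784 CPM in embryos 7 and 5. The slope was -0.13 ± 0.20 (edgeR adjusted p = 0.984; SRF-LOF alone 0.21, double-LOF alone -0.26). MT2_Mm, its LTR and promoter, had a slope of -0.35 ± 0.16 (p = 0.0479 and adjusted p = 0.984 in edgeR), -0.05 in SRF-LOF alone and -0.46 in double-LOF alone, where embryo 2 had 666 CPM and embryo 7 had 91.7 CPM. The 5' reads gave a slope of -0.06 for MT2_Mm and -0.05 for MERVL-int.

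**Figure D5:**
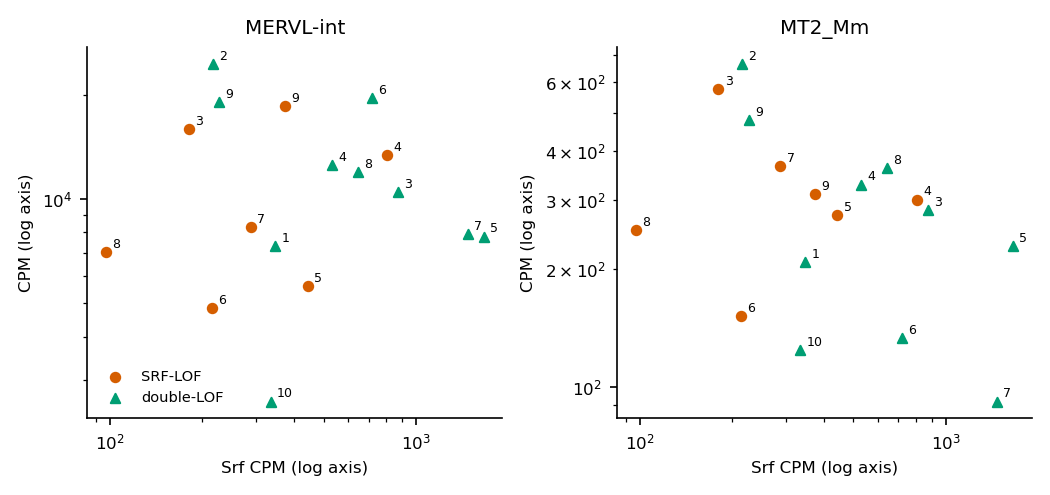
MERVL-int and MT2_Mm (CPM, log axes) against Srf CPM (log axis) in 7 SRF-LOF (circles) and 10 double-LOF embryos (triangles), with replicate numbers. Neither had a called slope; MERVL-int spans 2599 to 24556 CPM and double-LOF embryo 2, with the lowest Srf of its group, is the highest for both.

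Among the other repeats the smallest p belonged to RLTR34D_MM, an LTR, with a slope of 0.67 ± 0.19 (edgeR adjusted p = 0.620). MT2C_v, an LTR of the ERVL class, had 1660 and 973 CPM in SRF-LOF embryos 8 and 3 and 5.08 to 115 CPM in the other 5. In double-LOF it had 69.5 to 1272 CPM. The lack of overlap in SRF-LOF describes a repeat named by its p on Srf. Its slope was -1.19 ± 0.35 (edgeR adjusted p = 0.620; SRF-LOF alone -2.50, double-LOF alone -0.54), and the controls ranged from 402 to 2195 CPM. All 6 young LINE-1 subfamilies had positive slopes, 2 of them at an unadjusted p under 0.05, with a median of 0.19, beside 0.02 over all repeats. L1Md_Gf had a slope of 0.47 ± 0.17 (edgeR adjusted p = 0.891). The lists of 7 IAP, 14 older ERVL and MaLR, 10 SINE and 2 satellite subfamilies had no member at an unadjusted p under 0.05. Outside these lists some ERVL and MaLR subfamilies did, with slopes of either sign. Among them were MT2C_v, MLT1-int (slope 1.105 ± 0.333, edgeR p = 0.0034, adjusted p = 0.620) and ORR1A2-int (slope -0.39 ± 0.15, edgeR p = 0.0143, adjusted p = 0.891).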

How the data were processed

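RNA was counted in 35 single embryos, with 1 internal and 1 5' file each. Per the submitters' processing notes the aligner was STAR 2.7.11a and the build GRCm38; how reads were assigned to features is not stated there. The authors deposited raw internal counts per gene, repeat subfamily and ERCC spike-in, and 5' values, recorded as estimated counts, that were whole numbers. GENCODE M21 named 54809 of 54838 gene IDs.

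The Srf level was log2(TMM-scaled CPM + 1), centred in each group, with the Srf row left out of library sizes and tests. Every p of a slope, unless another tool is named, comes from edgeR 4.0.16 (limma 3.58.1, R 4.3.3; filterByExpr, TMM on gene rows, group as covariate, Benjamini-Hochberg separately for genes and repeats, threshold 0.05), and slopes are given ± standard error. The scripts were tested on simulated data. DESeq2 1.42.0, other scales of the Srf level, other scalings, covariates for depth and left-out embryos were alternatives. Correlations across embryos used 100000 permutations (scipy 1.17.1). No 2 embryos were alike enough to count as 1 (highest correlation 0.908). The members, lists and tests were chosen with earlier results of these data known. Named genes were up to 8 called genes per direction with a mean of at least 10 CPM and no predicted genes, then genes with the smallest p where under 4 were called, up to 4 members per list by p, MERVL-int, MT2_Mm and up to 5 repeats per direction. Of 599 list entries 585 matched a gene.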

Additional observations from a re-analysis of the deposited data

Results flagged for a closer look

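The values below stood far from the rest of their group of 7 or 10 embryos by Dixon's criterion, applied to 70 sets of group values. Chance flags about 1 in 20 such sets, and 6 values were singled out. The ratio of 5' to internal Srf CPM was 2.87 in SRF-LOF embryo 3, against 1.69 to 2.06 in the other 6. Internal gene counts were lowest in double-LOF embryo 6, at 220921. In double-LOF embryo 7, which had 1474 CPM of Srf, Emg1 stood at 1.58 CPM, Ebna1bp2 at 0 and Isyna1 at 9.48 CPM. Summed maternal oocyte transcripts were lowest in double-LOF embryo 2, at 8682 CPM.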

How the results depend on the processing

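The count of genes called by edgeR, 22, was also 22 with DESeq2's size factors and 27 with the ERCC ratio held. It was 915 with DESeq2, 448 with no count filter, 81 with the rank of Srf, 160 with all 35 embryos in 1 fit and 1 with 5' counts. It was 0 with the 5' Srf level, Srf set against ERCC counts, ERCC scaling, the gene count held, SRF-LOF embryos 3 and 8 left out, the shallowest embryo left out, or Srf per plain gene count (added after seeing the data). Single left-out embryos gave 0 to 80, with 0 in 11 of 17 fits and 80 without SRF-LOF embryo 6. Replicate numbers shared by both groups were not taken to pair the embryos, since 5 of 7 same-numbered pairs, and not all, had a correlation over 0.1; 3 of 7 SRF-LOF embryos correlated best with their own number. On those 14 embryos the replicate block gave 35 calls and the fit without it 0. Of 342 refitted slopes of called genes 0 changed sign and 210 no longer passed. In SRF-LOF alone DESeq2 called 413 genes and 8 repeats and no filter 204 and 1, in double-LOF alone 23 and 2 genes, without SRF mRNA 3 and 1, and the difference of slopes 1 with DESeq2. The median share of spread was 6.96% without SRF-LOF 3 and 8. Reversed values, none of them called, were Cd68 with rank 0.074, the gene count held 0.077, the block 0.29 and no block 0.20, Hba-a1 with the block 0.18 and MERVL-int with the block 0.14. With single embryos left out Cd68 ran from -0.14 to 0.14, MERVL-int from -0.21 to 0.028, the r of the ERCC ratio from -0.17 to 0.22 and that of MERVL-int from -0.23 to 0.11. The cause of these changes was not tested. The Srf level rests on 149 to 1382 Srf reads per embryo and the slopes on 17 embryos, and which limits the results more was not tested. Genes of a few CPM rest on few counts.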

Other observations

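The 10 genes nearest to the threshold on its outer side all had negative slopes. Of these, Cd63, a tetraspanin of late endosomes, had a slope of -1.70 ± 0.37 (edgeR adjusted p = 0.0627). H2-K1, a class I histocompatibility chain, had a slope of -0.97 ± 0.21 (edgeR adjusted p = 0.0657), and Nup155, a scaffold protein of the nuclear pore, of -1.14 ± 0.26 (edgeR adjusted p = 0.0670). They were listed after their values were seen.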
